A study of Mus musculus with 36 samples.

Results

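The collagen chain genes are the protein-coding genes of the mouse whose symbol is Col, a number, the letter a and a number, each of which encodes 1 of the polypeptides that wind into a triple helix. They were chosen by symbol alone, and 44 of the 56246 genes in the table carried such a symbol. RNA was sequenced from the tibiae of 36 C57BL/6J mice that were 6 months old, 12 in each of 3 groups with 6 males and 6 females. Wild-type mice carried no transgene and were not injected. Saline-treated mice were LMNA G/G, homozygous for a human transgene that carries the LMNA G608G mutation of Hutchinson-Gilford progeria syndrome, and received saline into the retro-orbital sinus at postnatal day 14. ABE-treated mice were LMNA G/G as well and received at the same age an adenine base editor, an enzyme that rewrites the mutant base, carried by a pair of AAV9 vectors. The transgene is a piece of a human chromosome that also holds RAB25, it adds to the mouse's own Lmna genes, and its transcripts were not analysed here. Epiphyses and marrow were removed before extraction, which leaves mostly cortical bone. The paper describes the 3 groups as littermates, and the labels name no batch. The wild-type mice were numbered in a series of their own, so a batch, if there was one, cannot be told apart from the genotype.

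The chains were grouped by the structures they build, 7 as chains of bone and other fibrils, 8 of cartilage, 6 that sit on the surface of fibrils, 9 of basement membranes, 6 of collagen VI, and 8 that form other networks or span the cell membrane. Fibrillar collagens are secreted as procollagens, trimmed by proteases and packed side by side into the fibrils that carry mineral in bone. Type I collagen, joined from the products of Col1a1 and Col1a2, is the main protein of bone matrix. Type II, IX and XI collagens form the fibrils of cartilage, and type X collagen is made by the enlarged chondrocytes at the border of cartilage and bone. Type IV collagen forms the sheet beneath endothelium and other epithelia, and its genes lie head to head in pairs.

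Promoter sequences from RefSeq (GRCm38.p6, from 250 bases before to 50 bases after the start of a transcript) were at hand for 35 of the 44 genes. Those of Col10a1, the chain that differed most between wild-type and LMNA G/G bone, and of the type IV pairs Col4a1 with Col4a2 and Col4a4 with Col4a3, whose starts share a window, are given 5′ to 3′ on the strand of the named gene. The promoter of Col10a1 (chr10:34389731-34390030, plus strand) is shown with the letters TATAAA in capitals. That of Col4a1 (chr8:11312777-11313076, minus strand) has in capitals the 22 bases that belong to both the Col4a1 and the Col4a2 gene model, and that of Col4a4 (chr1:82586800-82587099, minus strand) has in capitals the 71 bases between the Col4a4 and the Col4a3 gene models.
Col10a1: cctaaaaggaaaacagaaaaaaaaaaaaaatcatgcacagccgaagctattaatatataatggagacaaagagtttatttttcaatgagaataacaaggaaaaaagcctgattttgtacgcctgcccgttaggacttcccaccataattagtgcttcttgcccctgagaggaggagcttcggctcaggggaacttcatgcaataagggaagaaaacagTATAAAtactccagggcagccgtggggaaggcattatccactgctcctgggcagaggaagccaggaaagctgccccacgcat
Col4a1: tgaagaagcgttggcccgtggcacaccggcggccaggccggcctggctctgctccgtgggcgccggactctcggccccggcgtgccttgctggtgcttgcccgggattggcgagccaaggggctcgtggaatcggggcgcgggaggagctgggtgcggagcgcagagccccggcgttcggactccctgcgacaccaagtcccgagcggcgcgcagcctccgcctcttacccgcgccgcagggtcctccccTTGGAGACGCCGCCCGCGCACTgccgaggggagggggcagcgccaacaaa
Col4a4: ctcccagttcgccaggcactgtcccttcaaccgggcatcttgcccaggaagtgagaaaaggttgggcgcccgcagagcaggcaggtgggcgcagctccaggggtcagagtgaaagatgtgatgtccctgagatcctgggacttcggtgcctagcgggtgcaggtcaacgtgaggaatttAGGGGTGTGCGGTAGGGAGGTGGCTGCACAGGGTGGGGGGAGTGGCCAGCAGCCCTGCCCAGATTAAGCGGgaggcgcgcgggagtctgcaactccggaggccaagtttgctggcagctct
The letters TATAAA stood 32 bases before the start of Col10a1. Read on either strand, they were present in the promoters of 5 of the 35 members (Col3a1, Col10a1, Col11a2, Col13a1 and Col17a1), beside 13.6% of all 32851 promoters. The SOX motif ACAAAG was present in 5 members, Col3a1, Col10a1, Col17a1, Col20a1 and Col28a1, beside 18.7% of all promoters, and the RUNX motif TGTGGT in 3 members, Col8a1, Col17a1 and Col18a1, beside 16.8%. None of the 3 motifs contains another, and a match is a description of letters only.

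Levels are given as scaled TPM, which is TPM (the unit of the deposited table, which is reads per length of gene and per library total) divided by a factor for each library, and so can be compared between genes. Differences are given as log2 of scaled TPM + 0.5 with the standard error, from limma with sex as a covariate, and the adjusted p is that of Benjamini and Hochberg over all 15902 genes with a mean of at least 0.5 scaled TPM. A gene was called at an adjusted p under 0.05. Of the 44 chains, 29 passed the filter on low levels, and the other 15 are described from recovered reads. Libraries held 48064068 to 116206662 reads on genes. The first ABE-treated replicate stood apart by the share of TPM in very short genes (96.6%, against 84.7% to 93.0% in the rest). Its factor for scaling TPM was 0.219, against 0.61 or more in the rest. Collagen chains took 2.09% to 7.5% of the reads in wild-type libraries, 1.34% to 5.75% in saline-treated and 1.8% to 5.51% in ABE-treated libraries, and the groups overlapped. In bulk RNA, fewer cells of a type and less RNA per cell cannot be told apart.

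Saline-treated bone had lower levels of cartilage chains than wild-type bone, while the type I chains that dominate bone were not called. Against wild-type, 7 of the 29 chains were higher and 7 lower in saline-treated bone, where 27.7% of all genes tested were higher and 24.6% lower. Each count was 24.1% of the chains and so did not exceed the share of all genes. In females alone limma called 0 chains higher. Against wild-type, ABE-treated bone had 15 chains higher and 6 lower, where 35.0% of all genes were higher and 35.2% lower. Between the treatments, 10 chains were higher in ABE-treated bone and 0 lower, where 23.2% of all genes were higher and 25.2% lower, and at an unadjusted p under 0.05 the numbers were 12 and 0. The median difference over the 29 chains was -0.05, 0.34 and 0.28 in the 3 comparisons, and that over all genes was 0.02, -0.02 and -0.02. On TPM as deposited, where the median over all genes moved to -0.13, -0.42 and -0.27, the chains called were 2 higher and 7 lower, 4 higher and 11 lower, and 4 higher and 0 lower. Without the first ABE-treated replicate 14, 22 and 11 chains were called. Some chains kept their direction and their call under every alternative in which they were tested. They were 5 of 14 in the first comparison (Col9a2, Col9a3, Col10a1, Col14a1 and Col27a1). In the second they were 5 of 21 (Col9a2, Col9a3, Col10a1, Col12a1 and Col25a1), and in the last 4 of 10 (Col3a1, Col8a2, Col14a1 and Col16a1). In the last, Col14a1 fell under the filter and was not tested when only the groups compared were used. Each other called chain lost its call on TPM as deposited, in females alone or in males alone. Of the chains that kept their call, Col9a2, Col9a3 and Col10a1 passed the filter only through their wild-type levels. Without the wild-type libraries Col14a1 fell short of the filter as well. The first and second comparison share the wild-type libraries, and ABE-treated libraries enter both the second and the third comparison.

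**Figure D1:**
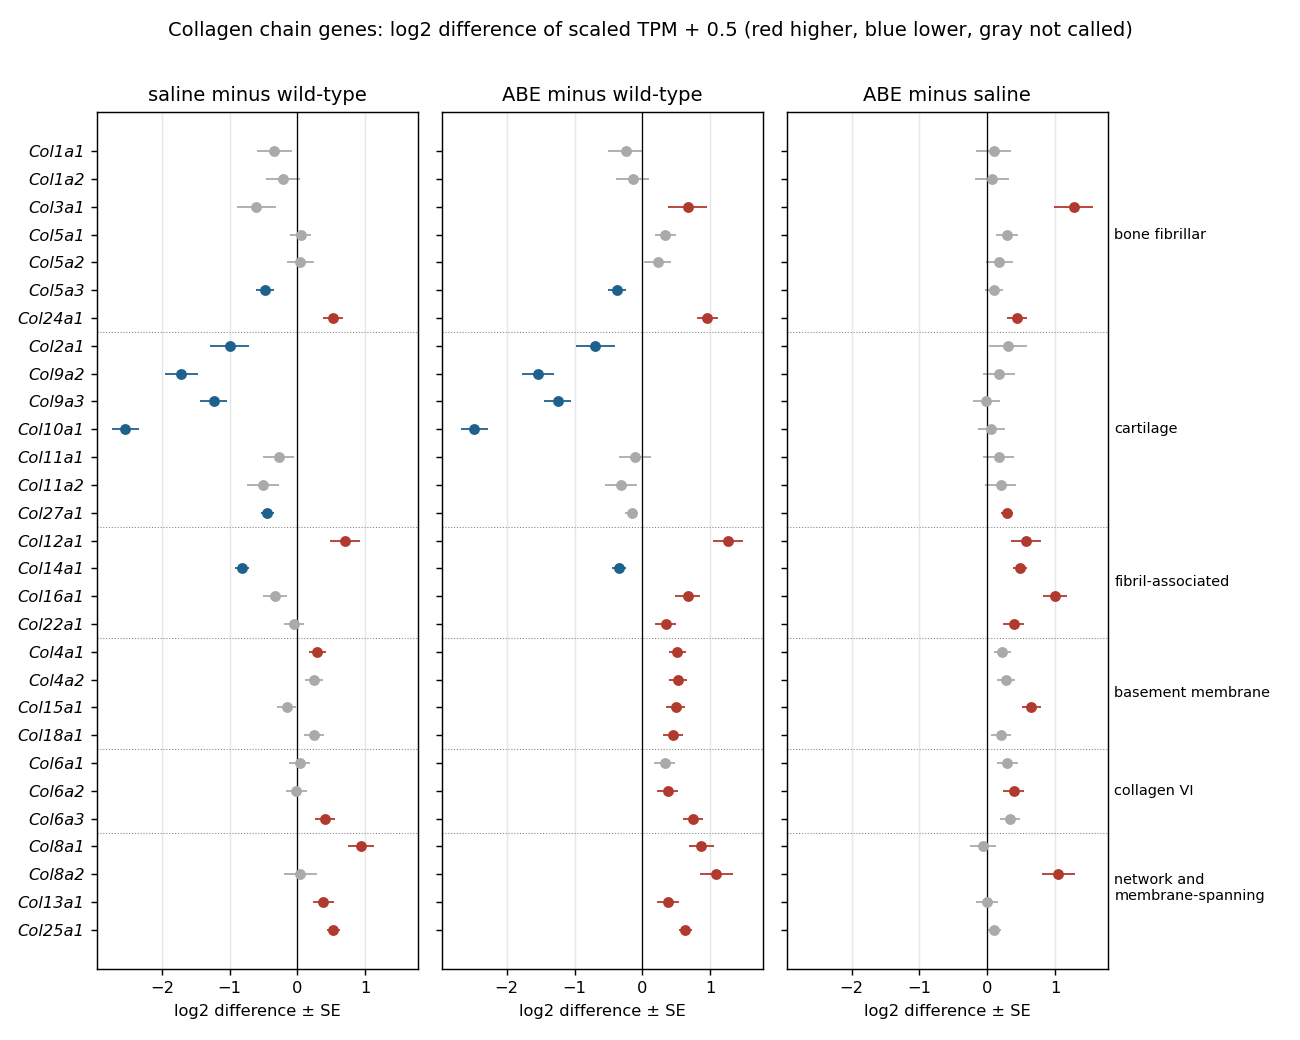
Differences of the 29 tested collagen chains in the 3 comparisons, as log2 of scaled TPM + 0.5 with the standard error (x axis), with the chains in rows by structural group. Points called higher are red, lower blue and not called gray; Col10a1 has the lowest values against wild-type (-2.54 with saline, -2.48 with ABE), and no chain is called lower between the treatments. On TPM as deposited the sign is the opposite one, with none called, for Col4a1, Col4a2, Col5a1, Col5a2, Col6a1, Col6a2, Col13a1 and Col22a1 in ABE-treated against wild-type mice, for Col5a1, Col5a2, Col6a1 and Col8a2 in saline-treated against wild-type mice, and for 14 chains between the treatments.

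Separate groups were the exception. In saline-treated against wild-type mice, the groups did not overlap for 4 of 29 chains, all lower (Col9a2, Col9a3, Col10a1 and Col14a1), and this held for 3.57% of all genes lower and 3.06% higher. In ABE-treated against wild-type mice, 3 chains were lower without overlap (Col9a2, Col9a3 and Col10a1), beside 4.45% of all genes lower and 4.14% higher. These 3 chains passed the filter only through wild-type libraries. Their means were 1.92, 1.36 and 3.28 in wild-type, 0.0858, 0.163 and 0.0338 in saline-treated and 0.161, 0.156 and 0.0575 in ABE-treated mice. A chain that passes in that way can only be counted as lower in LMNA G/G mice. Between the treatments every chain overlapped, beside 0.0189% of genes separate and higher and 0.0126% separate and lower.

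Col10a1, the chain of the hypertrophic cartilage network, lay at 1.11 to 13 (median 2.4) in wild-type mice, 0.0128 to 0.0788 (median 0.0317) in saline-treated mice and 0.016 to 0.126 (median 0.0403) in ABE-treated mice. All 12 wild-type libraries were above all 24 LMNA G/G libraries, and the 2 treated groups covered nearly the same range. Behind these levels were 913 to 8922 reads in wild-type and 11 to 103 in saline-treated libraries. The mean level was 97.1-fold higher in wild-type than in saline-treated mice and 57.1-fold higher than in ABE-treated mice. The difference with 0.5 added was -2.54 ± 0.20, adjusted p = 5.13e-12 in saline-treated mice and -2.48 ± 0.20, adjusted p = 7.15e-12 in ABE-treated mice. On reads, where the added constant weighs less, limma-voom gave -6.32 and -5.69. Between the treatments the difference was 0.06 ± 0.20, adjusted p = 0.823, and its 95% interval ran from -0.33 to 0.45. Exons of Col10a1 share 18 bases with Nt5dc1 on the opposite strand, and the strand setting of the counting was not stated.

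The type IX chains, which decorate cartilage fibrils, also fell. Col9a2 lay at 0.332 to 6.88 (median 1.05) in wild-type mice, 0.0333 to 0.173 (median 0.0762) in saline-treated mice and 0.0829 to 0.274 (median 0.16) in ABE-treated mice, so that neither LMNA G/G group reached the lowest wild-type library. Its difference was -1.71 ± 0.24, adjusted p = 4.18e-07 in saline-treated and -1.54 ± 0.24, adjusted p = 1.03e-06 in ABE-treated mice. Col9a3 lay at 0.251 to 4.98 (median 0.784) in wild-type mice, 0.128 to 0.198 (median 0.166) in saline-treated mice and 0.112 to 0.181 (median 0.161) in ABE-treated mice, again without overlap with wild-type, and its difference was -1.24 ± 0.20, adjusted p = 5.11e-06 and -1.25 ± 0.20, adjusted p = 1.73e-06. Its exons share 234 bases with Tcfl5 on the opposite strand. Neither chain was called between the treatments, at 0.17 ± 0.24 for Col9a2 and -0.02 ± 0.20 for Col9a3. Col9a1, the remaining type IX chain, did not pass the filter. Its levels were 0.0736 to 4.36 (median 0.432) in wild-type mice, 0.0517 to 0.152 (median 0.0742) in saline-treated mice and 0.0506 to 0.153 (median 0.105) in ABE-treated mice, which overlapped, and on reads it fell by limma-voom (-2.44 ± 0.53, adjusted p = 0.000225 in saline-treated and -2.12 ± 0.53, adjusted p = 0.000591 in ABE-treated mice).

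Col2a1, the main chain of cartilage fibrils, was the most abundant cartilage chain after Col11a2 and changed less. It lay at 8.57 to 59.9 (median 20) in wild-type mice, 3.3 to 24.3 (median 10.5) in saline-treated mice and 5.02 to 25.4 (median 14) in ABE-treated mice, and all groups overlapped. The difference was -1.001 ± 0.28, adjusted p = 0.00383 in saline-treated mice, -0.69 ± 0.28, adjusted p = 0.0299 in ABE-treated mice and 0.31 ± 0.28, adjusted p = 0.386 between the treatments. Col11a2, a chain of type XI collagen, which bone also makes, lay at 15.9 to 64.6 (median 27.8) in wild-type mice, 9.28 to 32 (median 21.8) in saline-treated mice and 11.2 to 36.7 (median 24.7) in ABE-treated mice. It was not called in the 3 comparisons (-0.51 ± 0.23, -0.31 ± 0.23 and 0.20 ± 0.23), and neither was Col11a1 (-0.28 ± 0.23, -0.11 ± 0.23 and 0.17 ± 0.23). On TPM as deposited both type XI chains were called lower in ABE-treated than in wild-type mice (Col11a2 -0.88, adjusted p = 0.00754 and Col11a1 -0.64, adjusted p = 0.0469), and in females alone Col11a2 was called lower after saline (-1.06, adjusted p = 0.0325) and after ABE (-0.88, adjusted p = 0.0354), all by limma. Col27a1, a fibrillar chain of developing cartilage, fell in saline-treated mice (-0.45 ± 0.09, adjusted p = 0.000201) and was higher in ABE-treated than in saline-treated mice (0.29 ± 0.09, adjusted p = 0.0121). Of the 7 tested cartilage chains 5 were lower after saline and 4 after ABE against wild-type, with none higher (beside 24.6% and 35.2% of all genes lower), and the group's median difference was -1.001 and -0.69. Both counts include Col9a2, Col9a3 and Col10a1, which passed the filter only through their wild-type levels.

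**Figure D2:**
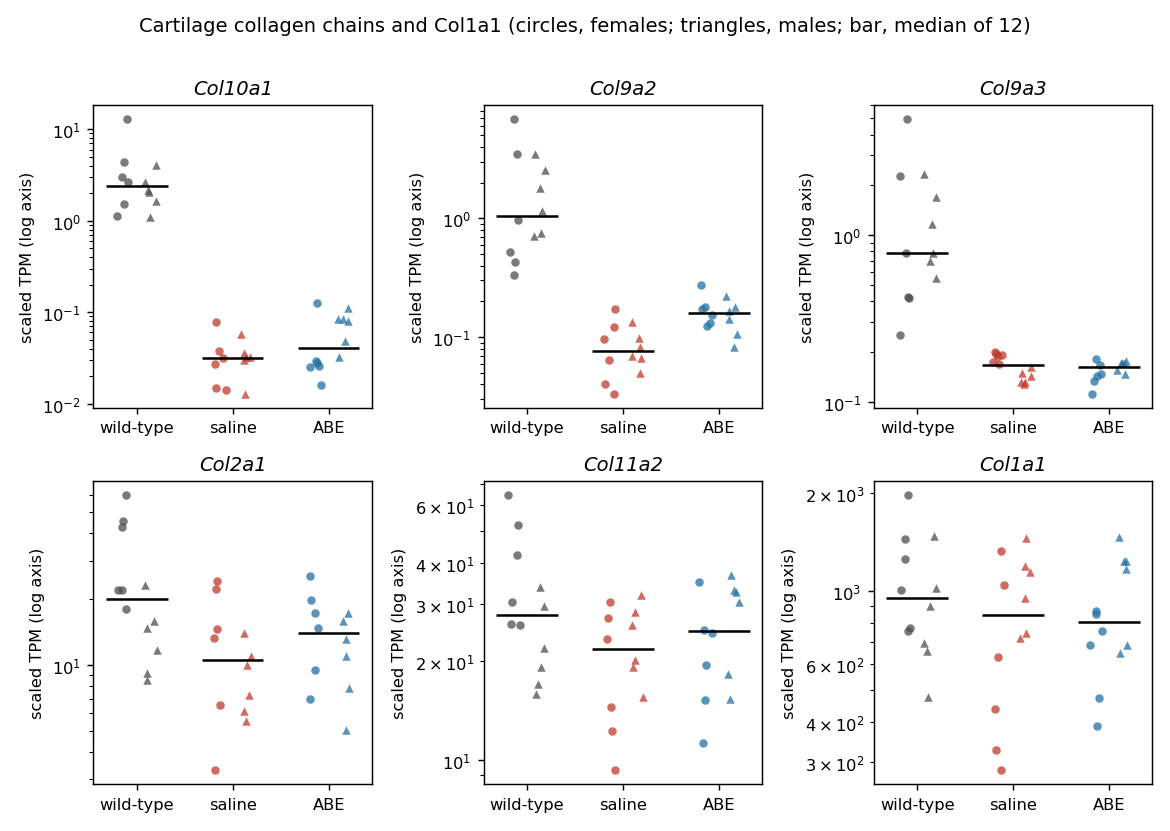
Levels of 5 cartilage collagen chains and of Col1a1 in each of the 36 libraries, as scaled TPM on a log axis, with circles for females, triangles for males and a bar at the median of 12. Col10a1, Col9a2 and Col9a3 in wild-type libraries lie above every saline-treated and ABE-treated library, whereas the groups overlap for Col2a1, Col11a2 and Col1a1.

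Other genes of cartilage moved with these chains. Of 11 non-collagen chondrocyte markers, 5 passed the filter (Acan, Chad, Comp, Cytl1 and Prg4). All 5 were lower in both LMNA G/G groups, beside 24.6% and 35.2% of all genes. The filter used the mean of all libraries, so a marker could pass on wild-type levels alone and then only be counted as lower. The summed level of the 11 ran over 78 to 217 in wild-type, 2.47 to 22.3 in saline-treated and 8.71 to 93.1 in ABE-treated mice, and Cnmd and Ucma were listed at 0 in at least 1 library of each LMNA G/G group. Prg4, the lubricant of joint surfaces, differed most at -6.22 and -5.01. Between the treatments 4 of the 5 were higher in ABE-treated mice, whereas Col10a1, Col9a2, Col9a3 and Col2a1 were not called. The part of residual cartilage in the levels of the cartilage chains was not tested.

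Type I collagen carried most of the collagen RNA and was not called in any of the 3 comparisons, but on TPM as deposited both chains were called lower in ABE-treated than in wild-type mice (Col1a1 -0.83, adjusted p = 0.0192 and Col1a2 -0.72, adjusted p = 0.035 by limma). Col1a1 lay at 475 to 1969 (median 957) in wild-type mice, 284 to 1456 (median 849) in saline-treated mice and 388 to 1466 (median 806) in ABE-treated mice, and each group spanned a similar range. The difference was -0.34 ± 0.26, adjusted p = 0.269 in saline-treated mice, -0.24 ± 0.26, adjusted p = 0.407 in ABE-treated mice and 0.10 ± 0.26, adjusted p = 0.775 between the treatments, with 95% intervals of -0.85 to 0.16, -0.75 to 0.26 and -0.41 to 0.60. Col1a2, its partner in the trimer, lay at 126 to 503 (median 237) in wild-type mice, 77.3 to 384 (median 237) in saline-treated mice and 120.1 to 380.0 (median 218) in ABE-treated mice, with differences of -0.21 ± 0.25, -0.14 ± 0.25 and 0.07 ± 0.25. In males alone both chains had positive differences against wild-type (Col1a1 0.30 and 0.33) and in females alone negative ones (-0.98 and -0.82), none of them called.

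Among the other chains of bone fibrils, Col3a1, the chain of type III collagen in periosteum, tendon and vessel walls, had the largest rise between the treatments. It lay at 5.52 to 36.5 (median 16.1) in wild-type mice, 3.46 to 21.3 (median 9.86) in saline-treated mice and 13.3 to 50 (median 22.6) in ABE-treated mice, and the ABE-treated libraries overlapped both other groups. It was higher in ABE-treated than in saline-treated mice (1.28 ± 0.29, adjusted p = 0.00134) and than in wild-type mice (0.67 ± 0.29, adjusted p = 0.0396), and against wild-type it was not called in saline-treated mice (-0.61 ± 0.29, adjusted p = 0.0752). In females alone it fell after saline (-1.45, adjusted p = 0.00887) and differed by 0.00731 after ABE, and in males alone the values were 0.23 and 1.33. Exons of Col3a1 share 141 bases with a predicted miRNA gene on the same strand. Col24a1, a fibrillar chain typical of bone, rose in all 3 comparisons (0.52 ± 0.15, 0.96 ± 0.15 and 0.44 ± 0.15). Its median was 1.51 in wild-type, 2.73 after saline and 3.86 after ABE. In females alone the values were 0.15, 0.47 and 0.33, none of them called. On TPM as deposited they were 0.38, 0.50 and 0.12, of which only the second was called. Col5a3, a minor type V chain, fell against wild-type (-0.47 ± 0.13 and -0.37 ± 0.13), and Col5a1 and Col5a2, the main type V chains that set fibril diameter, were not called, but in males alone both rose after saline (0.56 and 0.64) and after ABE (0.81 and 0.72).

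The chains on the surface of fibrils split into a rising and a falling member. Col12a1, a chain of type XII collagen that links fibrils in periosteum, tendon and bone, lay at 2 to 9.55 (median 4.43) in wild-type mice, 3.89 to 14.2 (median 8.02) in saline-treated mice and 6.59 to 19.4 (median 12.1) in ABE-treated mice. The order of the medians was wild-type, saline-treated, ABE-treated, and neighbouring groups overlapped. The difference was 0.69 ± 0.22, adjusted p = 0.0092 in saline-treated mice, 1.26 ± 0.22, adjusted p = 7.31e-06 in ABE-treated mice, which was the largest rise among the 29 tested chains there, and 0.57 ± 0.22, adjusted p = 0.0337 between the treatments. In females alone the first of these was 0.002. Col14a1, a chain of the related type XIV collagen, moved the other way against wild-type. It lay at 0.567 to 1.65 (median 0.877) in wild-type mice, 0.161 to 0.442 (median 0.311) in saline-treated mice and 0.2 to 0.955 (median 0.715) in ABE-treated mice, so that no saline-treated library reached the lowest wild-type library while 1 ABE-treated library lay among the saline-treated ones. Its difference was -0.82 ± 0.10, adjusted p = 6.6e-08 in saline-treated mice, -0.34 ± 0.10, adjusted p = 0.0039 in ABE-treated mice and 0.48 ± 0.10, adjusted p = 0.000913 between the treatments. Col14a1 passed the filter on low levels only with the wild-type libraries.

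Col22a1, a chain found at the junction of muscle and tendon, lay at 2.87 to 10.8 (median 5.08) in wild-type mice, 3.88 to 6.37 (median 5.34) in saline-treated mice and 4.59 to 9.08 (median 6.86) in ABE-treated mice. It was not called in saline-treated mice (-0.05 ± 0.15) and rose in ABE-treated mice against wild-type (0.34 ± 0.15, adjusted p = 0.0418, but -0.18 on TPM as deposited) and against saline (0.39 ± 0.15, adjusted p = 0.0314). Col16a1 rose in ABE-treated mice by 0.67 ± 0.18 against wild-type and 1.0004 ± 0.18 against saline. Against wild-type its value was 0.18 on TPM as deposited and 0.17 in females alone, neither called, and 1.16 in males alone. In females alone Col16a1 was lower after saline than in wild-type mice (-0.89, adjusted p = 0.00531 by limma). All 4 tested chains of this group were thus higher in ABE-treated than in saline-treated bone, beside 23.2% of all genes, with a median difference of 0.53. On TPM as deposited Col12a1 and Col22a1 were not called in that comparison (0.22 and 0.05). Nor was Col12a1 called in males alone, or Col22a1 in either sex alone.

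**Figure D3:**
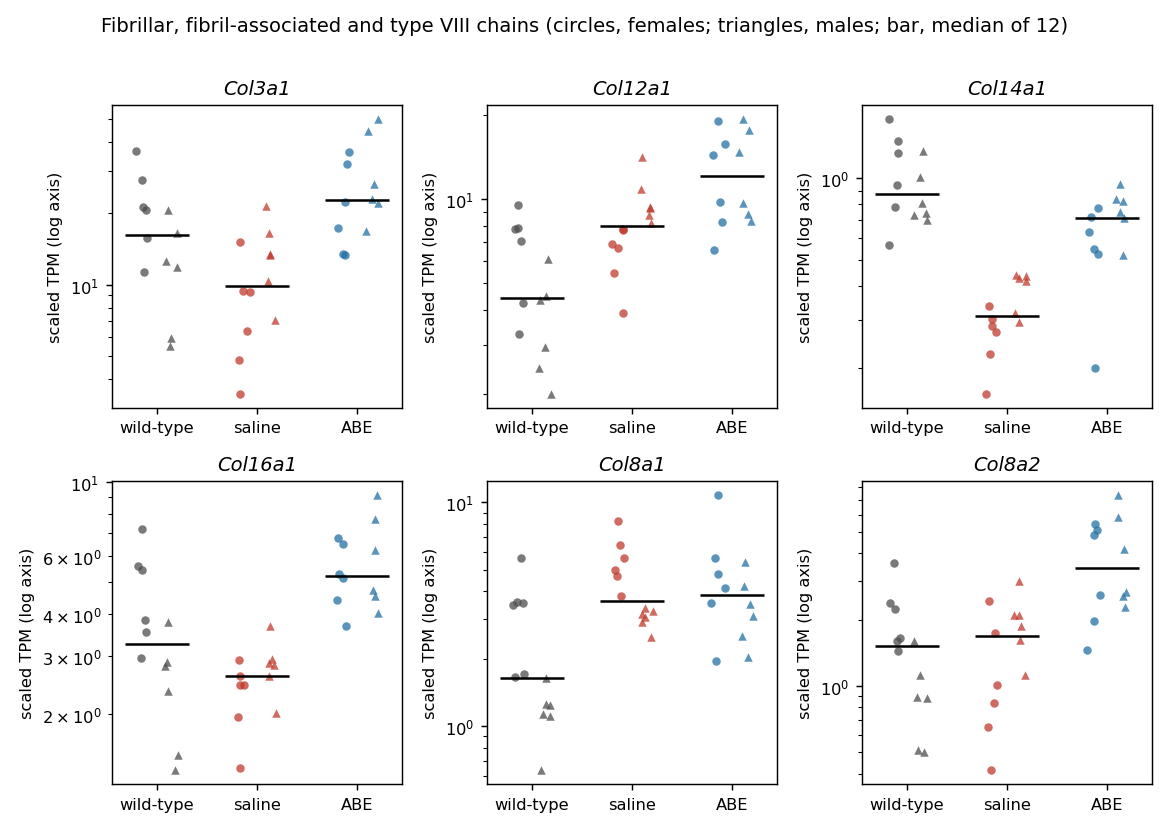
Levels of Col3a1, Col12a1, Col14a1, Col16a1, Col8a1 and Col8a2 in each of the 36 libraries, as scaled TPM on a log axis, with circles for females, triangles for males and a bar at the median of 12. The median of Col12a1 climbs from 4.43 to 8.02 and 12.1, and Col14a1 in saline-treated libraries lies below every wild-type library.

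Of the basement membrane chains, 1 of the 4 tested was higher after saline and all 4 after ABE than in wild-type mice, beside 27.7% and 35.0% of all genes. Col4a1 and Col4a2, which join in the trimer of nearly all basement membranes, were the most abundant. Col4a1 lay at 4.07 to 11.6 (median 7.74) in wild-type mice, 7.87 to 12.2 (median 9.13) in saline-treated mice and 8.11 to 15.7 (median 11.1) in ABE-treated mice. It rose in saline-treated mice (0.29 ± 0.12, adjusted p = 0.0474) and in ABE-treated mice (0.51 ± 0.12, adjusted p = 0.000459), in the latter with a sign that turned on TPM as deposited (-0.03). Col4a2 lay at 3.53 to 10.8 (median 7.44) in wild-type mice, 7.01 to 10.5 (median 8.3) in saline-treated mice and 7.52 to 15.6 (median 10) in ABE-treated mice, with differences of 0.25 ± 0.13, adjusted p = 0.12 in saline-treated and 0.53 ± 0.13, adjusted p = 0.000784 in ABE-treated mice (-0.01 on TPM as deposited). Neither was called between the treatments (0.22 ± 0.12 and 0.28 ± 0.13). Both genes start within the shared window shown above on chromosome 8. Col15a1 and Col18a1, whose products carry the fragments restin and endostatin, rose in ABE-treated against wild-type mice by 0.49 ± 0.14 and 0.45 ± 0.15, and Col15a1 rose against saline (0.65 ± 0.14, adjusted p = 0.000927). Against wild-type the values in ABE-treated females alone were 0.014 and 0.0555, those in males alone 0.97 and 0.85, and those on TPM as deposited 0.0511 and 0.0471, of which only those of males were called. In females alone Col15a1 was lower after saline than in wild-type mice (-0.55, adjusted p = 0.0261 by limma).

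The minor type IV chains were below the filter and were compared on recovered reads with limma-voom over 22955 genes. Reads of Col4a3 numbered 60 to 182 in wild-type, 54 to 285 in saline-treated and 133 to 780 in ABE-treated libraries. Its exons share 563 bases with C430014B12Rik on the opposite strand. Col4a3, Col4a4 and Col4a5, which join in the network of the kidney glomerulus, were all higher in ABE-treated than in saline-treated mice, by 1.67 ± 0.29, 1.298 ± 0.26 and 1.14 ± 0.24 (adjusted p = 0.000214, 0.000573 and 0.000791). Against wild-type they were also higher in ABE-treated mice (1.72, 1.23 and 0.79) and were not called in saline-treated mice. Among ABE-treated libraries the first replicate, which stood apart, had the highest scaled TPM of each (0.431, 0.245 and 0.224). Limma-voom was not run without it. Col4a6, which lies 1308 bases from Col4a5 on chromosome X, fell in saline-treated mice (-0.93 ± 0.25, adjusted p = 0.00208) and was higher in ABE-treated than in saline-treated mice (0.75 ± 0.26, adjusted p = 0.0174).

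Collagen VI, the beaded microfibril that surrounds cells, was represented by 3 tested chains. Col6a1 lay at 4.72 to 15.6 (median 9.69) in wild-type mice, 7.37 to 14.3 (median 9.1) in saline-treated mice and 7.69 to 17.4 (median 12.8) in ABE-treated mice and was not called in any comparison (0.03 ± 0.16, 0.33 ± 0.16 and 0.30 ± 0.16). Col6a3, the longest chain, lay at 3.05 to 9.89 (median 5.53) in wild-type mice, 5.74 to 11.2 (median 7.58) in saline-treated mice and 6.9 to 16.8 (median 10.8) in ABE-treated mice and rose in saline-treated (0.41 ± 0.15, adjusted p = 0.0229) and ABE-treated mice (0.74 ± 0.15, adjusted p = 5.17e-05) against wild-type. Col6a2 rose in ABE-treated mice against wild-type (0.37 ± 0.15, but -0.13 on TPM as deposited) and against saline (0.39 ± 0.15). Col6a6, below the filter, was lower in saline-treated than in wild-type mice on reads (-1.22 ± 0.44, adjusted p = 0.0191), and Col6a4 and Col6a5 were not called on reads in any of the 3 comparisons.

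Among the network and membrane-spanning chains, type VIII collagen forms hexagonal networks in vessel walls and the cornea, and the levels of both its chains differed between groups. Col8a1 lay at 0.635 to 5.62 (median 1.65) in wild-type mice, 2.5 to 8.28 (median 3.61) in saline-treated mice and 1.94 to 10.8 (median 3.86) in ABE-treated mice. With 0.5 added it had the largest rise among the 29 tested chains in saline-treated mice (0.94 ± 0.19, adjusted p = 0.000119), rose in ABE-treated mice (0.87 ± 0.19, adjusted p = 0.000139) and was not called between the treatments (-0.07 ± 0.19). Its partner Col8a2 instead rose in ABE-treated mice, by 1.09 ± 0.25 against wild-type and 1.05 ± 0.25 against saline, and had a difference of 0.04 ± 0.25 in saline-treated mice. Col13a1, a membrane-spanning chain of cell contacts, lay at 1.07 to 4.24 (median 1.96) in wild-type mice, 1.85 to 3.79 (median 3.03) in saline-treated mice and 2.05 to 4.19 (median 2.75) in ABE-treated mice and rose against wild-type in both groups (0.38 ± 0.16, adjusted p = 0.0428 and 0.38 ± 0.16, adjusted p = 0.034, the latter -0.06 on TPM as deposited). In females alone both values were negative (-0.20 and -0.15) and not called. Col25a1, the membrane-spanning chain needed for motor nerves to reach muscle, rose in both groups against wild-type (0.53 ± 0.10 and 0.63 ± 0.10).

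On reads, all 44 chains could be tested. Against wild-type, 9 were higher and 10 lower in saline-treated mice (28.0% and 28.0% of all genes), and 25 higher and 7 lower in ABE-treated mice (36.4% and 36.5%). Between the treatments 18 were higher and 0 lower in ABE-treated mice (23.9% and 22.6%), and at an unadjusted p under 0.05 limma-voom gave 20 and 0. Among the remaining low chains, Col23a1 rose in both groups against wild-type (0.75 ± 0.14 and 0.98 ± 0.14), as did Col7a1, the anchoring fibril chain of skin (0.88 ± 0.28 and 1.18 ± 0.28). Col20a1, Col26a1 and Col28a1 were higher in ABE-treated mice than in both other groups, by 0.59, 1.12 and 0.92 against saline. Among ABE-treated libraries the first replicate, which stood apart, had the highest scaled TPM of Col20a1 (1.22). It was below the highest for Col26a1 (0.0921, against 0.0971) and Col28a1 (0.336, against 0.375). Limma-voom was not run without that replicate. Col17a1 and Col19a1, with medians of 22 and 114 reads in wild-type libraries, were not called in the 3 comparisons.

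The change in saline-treated bone differed between the sexes for 4 chains, each with the larger value in males. Against wild-type, males alone had 12 chains higher and 5 lower in saline-treated mice, where 28.7% of all genes were higher and 26.0% lower, and females alone had 0 higher by limma (1 at an unadjusted p under 0.05) and 12 lower, where 10.4% were higher and 10.1% lower. In ABE-treated mice males alone had 18 higher and 3 lower (31.3% and 34.3% of all genes) and females alone 2 higher and 8 lower (29.1% and 25.2%). The interaction of sex and group itself was called for 4 of 29 chains in saline-treated against wild-type mice, all with the larger value in males, where 0.887% of all genes were called in that direction. These were Col5a1, Col13a1, Col22a1 and Col25a1. On TPM as deposited limma called 0 of the 29 (11 at an unadjusted p under 0.05), and without the first ABE-treated replicate, which changes the shared spread, 9 were.

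Col13a1 lay at 1.07 to 1.97 (median 1.53) in wild-type males and 1.9 to 4.24 (median 2.86) in wild-type females, and at 2.89 to 3.79 (median 3.39) in saline-treated males and 1.85 to 3.5 (median 2.38) in saline-treated females. Wild-type males were thus below all saline-treated males, while the females overlapped. The male change less the female change was 1.15 ± 0.23, adjusted p = 0.0409. Col22a1 lay at 2.87 to 5.33 (median 4.27) in wild-type males, 4.83 to 10.8 (median 6.61) in wild-type females, 4.97 to 6.33 (median 5.8) in saline-treated males and 3.88 to 6.37 (median 4.41) in saline-treated females, with an interaction of 1.02 ± 0.23, adjusted p = 0.0409. In males it rose (0.46) and in females it fell (-0.56). Col5a1 and Col25a1 had interactions of 1.02 ± 0.25, adjusted p = 0.043 and 0.65 ± 0.15, adjusted p = 0.0409.

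Within wild-type mice, Col6a1, Col6a2, Col13a1 and Col22a1 were lower in males than in females (-0.85, -0.81, -0.74 and -0.77), 4 of 29 chains where 0.201% of all genes were lower, and on TPM as deposited limma called 0 of them (9 at an unadjusted p under 0.05, all lower). Within saline-treated mice 0 chains were called in either direction (0.566% of all genes; 10 chains at an unadjusted p under 0.05, and 1 of 44 by limma-voom), and within ABE-treated mice Col25a1 was higher in males (0.40 ± 0.11, adjusted p = 0.0296, where 4.86% of all genes were called), whereas on TPM as deposited 22 of the 29 chains were called higher in males. The interaction in ABE-treated against wild-type mice was called for 9 chains, all with the larger value in males, where 1.82% of all genes were called in that direction. That comparison shares the wild-type libraries with the former. Between the treatments limma called the interaction for 0 chains, where 0.0566% of all genes were called, with 0 chains at an unadjusted p under 0.05 and 0 of 44 by limma-voom.

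**Figure D4:**
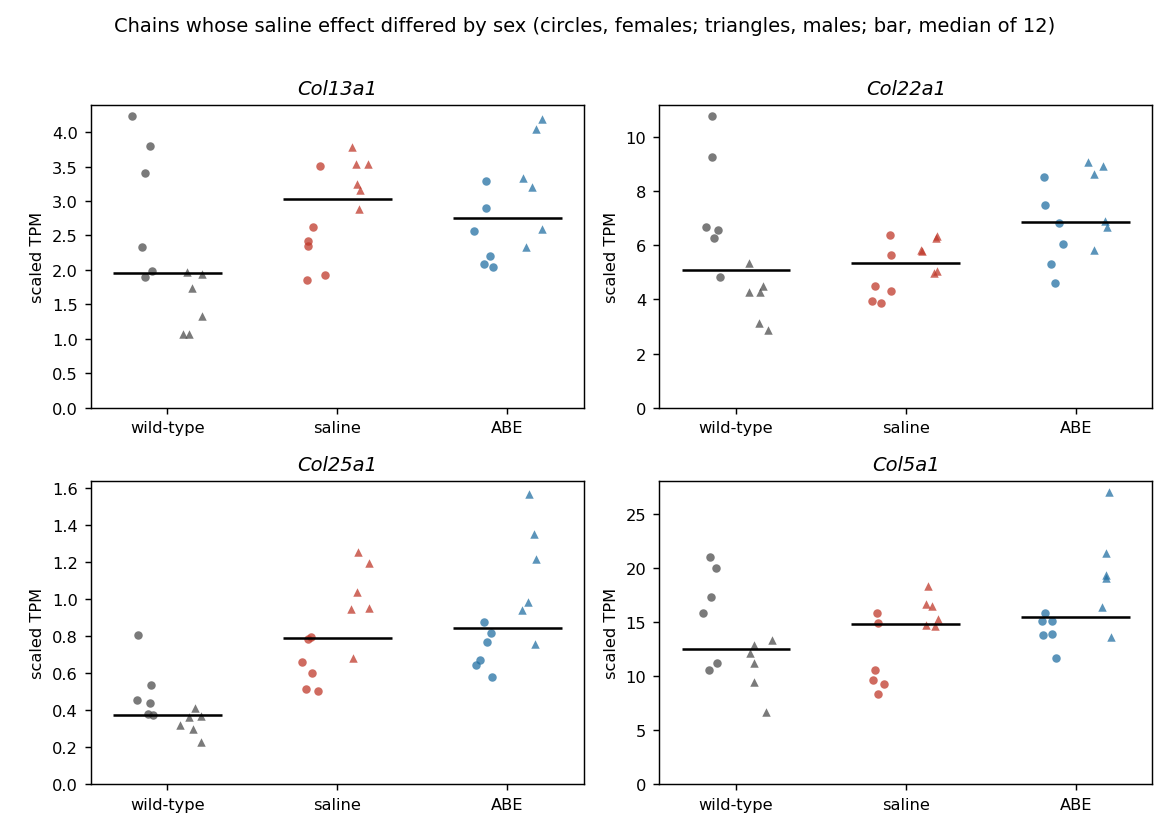
Levels of Col13a1, Col22a1, Col25a1 and Col5a1 in each of the 36 libraries, as scaled TPM, with circles for females, triangles for males and a bar at the median of the 12 libraries of a group. Wild-type females lie mostly above wild-type males, whereas saline-treated males lie mostly above saline-treated females.

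Ratios of chains within a library do not depend on how libraries are scaled. The differences of 24 log2 ratios between groups were tested with permutation tests (two-sided, 100000 resamples), adjusted over the 24. Col1a1 to Col1a2, whose products join in type I collagen, had a ratio of TPM of 3.69 to 4.16 (median 4.01) in wild-type mice, 3.5 to 3.8 (median 3.61) in saline-treated mice and 3.23 to 3.92 (median 3.77) in ABE-treated mice. It was lower in saline-treated mice (log2 difference -0.13, adjusted p = 8e-05 by permutation, from the smallest p the test can give) and in ABE-treated mice (-0.10, adjusted p = 0.00223 by permutation) than in wild-type mice, although neither chain was called by itself. In males alone the latter was not called. The ratio of Col9a2 to Col9a3 was lower than in wild-type in saline-treated (-1.48, adjusted p = 0.00012 by permutation) and ABE-treated mice (-0.42, adjusted p = 0.0198 by permutation) and higher in ABE-treated than in saline-treated mice (1.06, adjusted p = 0.00192 by permutation). Both chains were low in LMNA G/G mice, with as few as 26 reads of Col9a2 and 96 of Col9a3 in a library. Exons of Col9a3 also share 234 bases with Tcfl5, which limits what this ratio can tell.

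Col10a1 to Col2a1 separated wild-type from both other groups. Col10a1 passed the filter only through its wild-type levels and had as few as 11 reads in a library. The ratio is thus no separate support for the lower level of Col10a1. The log2 ratio was -5.25 to -1.99 (median -2.82) in wild-type, -9.47 to -6.58 (median -8.59) in saline-treated and -9.83 to -6.15 (median -7.91) in ABE-treated mice, with differences of -5.37, adjusted p = 8e-05 and -5.04, adjusted p = 8e-05 by permutation. Col3a1 to Col1a1 was higher in ABE-treated mice than in saline-treated (1.23, adjusted p = 0.0139 by permutation) and wild-type mice (0.93, adjusted p = 0.0217 by permutation), and within either sex alone neither was called. The ratio of Col11a1 to Col11a2 rose against wild-type in saline-treated (0.22, adjusted p = 0.00939 by permutation) and ABE-treated mice (0.21, adjusted p = 0.0337 by permutation). Col6a1 to Col6a2 was lower in ABE-treated than in saline-treated mice (-0.12, adjusted p = 0.00192 by permutation) and wild-type mice (-0.07, adjusted p = 0.0447 by permutation). The ratio of Col4a1 to Col4a2, the pair with the shared start, stayed between 0.985 and 1.19 in all 36 libraries and was lower in ABE-treated than in saline-treated mice (-0.06, adjusted p = 0.0217 by permutation, not called within either sex). Col5a1 to Col5a2 was not called in any comparison.

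**Figure D5:**
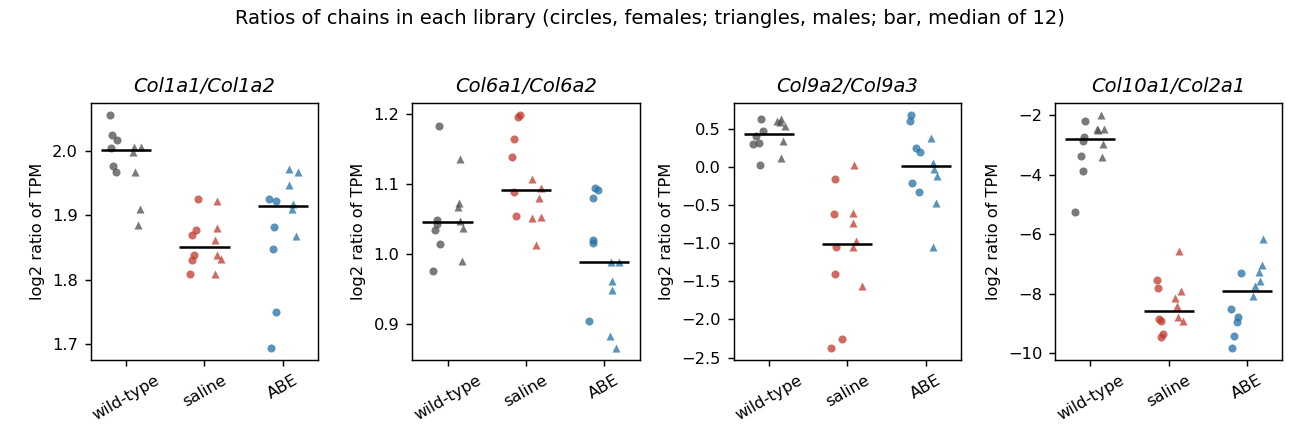
Log2 ratio of TPM of 4 pairs of chains in each library, with circles for females, triangles for males and a bar at the median of 12. The ratio of Col10a1 to Col2a1 in wild-type libraries lies above every saline-treated and ABE-treated library, and the median ratio of Col1a1 to Col1a2 is highest in wild-type libraries.

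Genes that fold, trim and cross-link collagen included more that rose than fell in LMNA G/G bone. Of 28 tested genes of the list, 14 were higher and 1 lower in saline-treated mice, and 21 higher and 1 lower in ABE-treated mice against wild-type, with median differences of 0.27 and 0.36. Between the treatments 6 were higher and 2 lower. As given above, 27.7% of all genes were higher and 24.6% lower in the first comparison, 35.0% and 35.2% in the second and 23.2% and 25.2% in the last, and these shares stand beside the counts of each gene list that follows as well. Plod2, the lysyl hydroxylase that acts on the ends of collagen chains, had the largest rise (1.14 ± 0.13, adjusted p = 1.16e-08 and 1.12 ± 0.13, adjusted p = 8.92e-09). Sparc, the most abundant gene of the list and a collagen-binding protein of bone, was not called (0.17, 0.20 and 0.03). Between the treatments P4ha2, a subunit of prolyl hydroxylase, rose most (0.63 ± 0.11, adjusted p = 0.00019), and Lox, a cross-linking enzyme, fell most (-0.48 ± 0.16, adjusted p = 0.0145).

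Genes that break collagen down were higher in saline-treated bone and partly lower again with ABE. Of 8 tested, 6 were higher and 0 lower in each LMNA G/G group against wild-type, and 1 was higher and 3 lower in ABE-treated than in saline-treated mice. Mmp13, the collagenase of bone and hypertrophic cartilage, rose by 1.9997 ± 0.23, adjusted p = 1.31e-08 in saline-treated mice and was lower in ABE-treated than in saline-treated mice (-0.84 ± 0.23, adjusted p = 0.00408). Ctsk, the protease of osteoclasts, had values of 1.64 ± 0.23, adjusted p = 4.92e-07 and -0.78 ± 0.23, adjusted p = 0.00644 in the same comparisons. Of 12 collagen receptors, 7 were higher and 2 lower in saline-treated mice, 9 higher and 2 lower in ABE-treated mice, and 5 higher and 4 lower between the treatments. Itgb1, the most abundant receptor, rose against wild-type (0.33 and 0.40), and Gp6, the receptor of platelets, fell (-0.88 and -1.33).

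Among genes of the proteins that coat collagen fibrils, more were higher than lower in ABE-treated bone. Of 11 tested, 7 were higher and 1 lower in ABE-treated mice against wild-type and 6 higher and 0 lower against saline, whereas 3 were higher and 4 lower in saline-treated mice. Tnxb, a matrix protein of connective tissue, had the lowest difference but one in saline-treated mice (-1.44 ± 0.26, adjusted p = 3.33e-05) and the largest rise between the treatments (1.57 ± 0.26, adjusted p = 0.000195). Fn1, the fibronectin on which collagen fibrils assemble, was the most abundant and fell in both groups against wild-type (-1.80 and -1.57).

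Markers of the tissues around bone were higher in ABE-treated mice as well. All 12 skeletal muscle markers were higher in ABE-treated than in wild-type mice and 10 of 12 than in saline-treated mice, with a summed level of 209 to 3119 in wild-type, 331 to 7903 in saline-treated and 1109 to 13243 in ABE-treated mice. All 4 tested tendon markers, of 5, were higher in ABE-treated than in wild-type and in saline-treated mice, with a summed level of 5.14 to 38.1 in wild-type, 2.06 to 28.5 in saline-treated and 11.1 to 59.9 in ABE-treated mice. In saline-treated against wild-type mice, 9 of 12 muscle markers and 1 of the 4 tested tendon markers were higher. There Col12a1 was called higher, and Col3a1, Col16a1 and Col22a1 were not called. No marker of either list was at 0 throughout a group. Their part in the rise of Col3a1, Col12a1, Col16a1, Col22a1 and the other chains was not tested. Osteoblast markers were high in all groups, with a summed level of 143 to 652 in wild-type, 164 to 660.4 in saline-treated and 283 to 579.8 in ABE-treated mice, and 4 of 8 were higher in each LMNA G/G group than in wild-type mice. The osteocyte list summed to 10.8 to 49.9 in wild-type, 173 to 495 in saline-treated and 177 to 350.4 in ABE-treated mice, so that wild-type libraries held less of it than any LMNA G/G library.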

How the data were processed

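RNA of 36 tibiae was sequenced with a stranded poly(A) kit and paired-end reads. The authors aligned reads to GRCm38 with STAR (2.73a in the submitters' processing notes), used QoRTs to count them per GENCODE gene, and deposited TPM for 56246 genes, with the gene length in the same table. How TPM were calculated is not given in the sources used here. From the values, each TPM is a whole number of reads over the length of the gene minus 218 bp and scaled to a fixed total, so short genes hold 84.7% to 96.6% of TPM, and 100% of the values above 0 gave whole reads (tolerance 0.01 read). A median of 78234452.5 reads per library lay on genes, and 0 of 630 pairs of libraries were identical.

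TPM were divided by the library's median ratio to the geometric means of 23632 genes above 0 in every library. limma (trend) was fitted to log2(scaled TPM + 0.5) of 15902 genes in all 36 libraries, with sex as covariate or with the group-by-sex means for interactions. The 15 chains with a mean under 0.5 were tested with limma-voom on recovered reads (mean of at least 10). Replicates are separate mice. The members and gene lists were chosen with earlier results of these data known. Full values are given, in each structural group, for the 2 tested chains with the highest means, for the called chains with the largest rise and fall of each comparison and for chains whose groups did not overlap; other genes were named in brief, those of pathway lists for their level or largest called change, and some after their values were seen. The sex contrasts within a group and the sex difference of ABE against wild-type were added after the data were seen. Alternatives were a pseudocount of 0.1 or 1, no filter, TPM as deposited, quantile normalization, limma-voom, no sex covariate, only the groups compared, either sex alone, and leaving out the first ABE-treated replicate. The tests were tried on simulated data. Gene positions were read from GENCODE vM21 (GRCm38), where 41 of the 44 chains had the same versioned ID and exons of 13 overlapped those of another gene. The tools were limma 3.58.1 in R 4.3.3, and scipy 1.17.1, pandas 2.3.3, numpy 2.4.6 and matplotlib 3.10.9 in Python 3.11.15.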

Additional observations from a re-analysis of the deposited data

Results flagged for a closer look

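The change from wild-type differed between males and females by the interaction test of limma, adjusted over all 15902 genes, for 4 chains in the saline group and 9 in the ABE group. In saline-treated mice the male change less the female change on the log2 scale was 1.15 for Col13a1, 1.02 for Col22a1, 0.65 for Col25a1 and 1.02 for Col5a1. In ABE-treated mice it was 1.06 for Col13a1, 0.96 for Col15a1, 1.01 for Col22a1, 0.98 for Col24a1, 0.65 for Col25a1, 0.60 for Col27a1, 0.85 for Col4a2, 0.93 for Col5a1 and 0.84 for Col5a3. Each of the 6 males and 6 females of a wild-type group enters both sets of values, so the 2 sets are not independent. At an unadjusted p under 0.05, 22 of 29 chains differed in the saline group and 23 in the ABE group, every one with the larger value in males.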

How the results depend on the processing

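Of the values of the 29 tested chains in the 3 comparisons under the alternatives, 798 kept their direction and their side of the threshold, 62 kept their direction and were no longer called, 28 were newly called and 65 turned sign, of which only Col22a1 in saline-treated males (0.46, adjusted p = 0.00866 by limma) was called with the new sign. Called chains in saline-treated against wild-type mice numbered 9 on TPM as deposited. In ABE-treated against wild-type mice they numbered 32 of 44 with limma-voom and 10 in females alone, and between the treatments 4 on TPM as deposited, 18 of 44 with limma-voom and 6 in females alone. The sex difference of saline against wild-type was called by limma for 0 chains on TPM as deposited (11 at an unadjusted p under 0.05), 9 of 44 with limma-voom and 9 without the first ABE-treated replicate. Limma-voom tests more chains, and a fit to 1 sex has fewer mice. The cause of the other shifts was not tested. No paired analysis was possible because replicate numbers only name mice. The levels of the 15 chains under the filter rest on few reads, which limits what can be told of them, and wild-type mice were not injected and cannot be told apart from a batch.

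On TPM as deposited, differences turned sign in saline-treated against wild-type mice to -0.14 for Col5a1, -0.14 for Col5a2, -0.15 for Col6a1, -0.0824 for Col8a2, and in ABE-treated against wild-type mice to -0.0619 for Col13a1, -0.18 for Col22a1, -0.0281 for Col4a1, -0.00729 for Col4a2, -0.21 for Col5a1, -0.32 for Col5a2, -0.21 for Col6a1, -0.13 for Col6a2, and between the treatments to -0.18 for Col11a1, -0.18 for Col11a2, -0.057 for Col18a1, -0.29 for Col1a1, -0.31 for Col1a2, -0.0785 for Col25a1, -0.0614 for Col2a1, -0.14 for Col4a1, -0.0748 for Col4a2, -0.0724 for Col5a1, -0.18 for Col5a2, -0.20 for Col5a3, -0.0595 for Col6a1, -0.0148 for Col6a3. In females alone, differences turned sign in saline-treated against wild-type mice to -0.20 for Col13a1, -0.0211 for Col4a2, -0.46 for Col5a1, -0.55 for Col5a2, -0.36 for Col6a1, -0.73 for Col8a2, and in ABE-treated against wild-type mice to -0.15 for Col13a1, -0.16 for Col22a1, -0.12 for Col5a1, -0.28 for Col5a2, -0.0746 for Col6a1, -0.0586 for Col6a2, and between the treatments to 0.0414 for Col13a1, -0.058 for Col18a1, -0.092 for Col5a3. In males alone, differences turned sign in saline-treated against wild-type mice to 0.26 for Col11a1, 0.0467 for Col11a2, 0.23 for Col15a1, 0.22 for Col16a1, 0.30 for Col1a1, 0.40 for Col1a2, 0.46 for Col22a1, 0.23 for Col3a1, 0.39 for Col6a2, and in ABE-treated against wild-type mice to 0.33 for Col11a1, 0.25 for Col11a2, 0.33 for Col1a1, 0.36 for Col1a2, 0.14 for Col27a1, 0.0474 for Col5a3, and between the treatments to -0.0401 for Col1a2, 0.11 for Col8a1, 0.0533 for Col9a3. With quantile normalization, differences turned sign in saline-treated against wild-type mice to 0.0349 for Col1a2, and in ABE-treated against wild-type mice to 0.0187 for Col1a1, 0.15 for Col1a2, and between the treatments to 0.22 for Col9a3. Without the first ABE-treated replicate, differences turned sign between the treatments to 0.0305 for Col13a1, 0.0495 for Col8a1. In females alone, the log2 ratio differences no longer called (exact permutation) were 0.22 for Col11a1/Col11a2 in saline-treated against wild-type mice, and -0.0153 for Col6a1/Col6a2, -0.16 for Col9a2/Col9a3, 0.32 for Col11a1/Col11a2, 0.82 for Col3a1/Col1a1 in ABE-treated against wild-type mice, and -0.0343 for Col4a1/Col4a2, -0.11 for Col6a1/Col6a2, 1.36 for Col3a1/Col1a1 between the treatments. In females alone, those that turned sign were 0.047 for Col4a1/Col4a2 in ABE-treated against wild-type mice, and -0.0214 for Col1a1/Col1a2, 0.0999 for Col11a1/Col11a2, -0.15 for Col10a1/Col2a1 between the treatments. In males alone, the log2 ratio differences no longer called (exact permutation) were 0.23 for Col11a1/Col11a2 in saline-treated against wild-type mice, and -0.0318 for Col1a1/Col1a2, 0.10 for Col11a1/Col11a2, 1.04 for Col3a1/Col1a1 in ABE-treated against wild-type mice, and -0.0953 for Col4a1/Col4a2, 0.61 for Col9a2/Col9a3, 1.09 for Col3a1/Col1a1 between the treatments. In males alone, those that turned sign were -0.0836 for Col5a1/Col5a2 in saline-treated against wild-type mice.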

Other observations

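Within a group, chains differed widely in how much they varied between mice. In wild-type mice the SD of Col10a1 was 98.9% of its mean and that of Col9a2 100.3%, whereas in ABE-treated mice that of Col9a3 was 13%. Col1a1 had an SD of 41.3%, 45.8% and 38.4% of the mean in the 3 groups, in the order wild-type, saline, ABE.

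Other cells of the tibia were followed by marker lists, with counts of markers called against wild-type in saline-treated and then in ABE-treated mice. Of all genes, 27.7% and 35.0% were higher and 24.6% and 35.2% lower. Of 5 osteoclast markers tested, 5 and 5 were higher. Of 7 markers of fibroblasts and periosteum, 2 and 2 were higher and 4 and 2 lower. Of 8 endothelial markers 3 and 6 were higher, and of 6 markers of smooth muscle and pericytes 0 and 5. Of 4 adipocyte markers 1 and 3 were lower, of 3 Schwann cell markers 1 and 1, of 6 B cell markers 5 and 5 and of 5 erythroid markers 0 and 4. Of 7 neutrophil markers 2 were higher in saline-treated and 2 lower in ABE-treated mice.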
